A study of Homo sapiens with 6 samples.

Results

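The YTH domain family comprises YTHDF1, YTHDF2, YTHDF3, YTHDC1 and YTHDC2, the 5 human genes that encode a YTH domain. They were taken by gene symbol from the deposited count table, which lists 32943 genes. All 5 had a row and all 5 were among the 17747 genes that passed the filter on low counts. They were measured in cells labelled AGS, the name of a human gastric adenocarcinoma line, by RNA sequencing of polyadenylated RNA, with 3 control libraries that received a control plasmid and 3 libraries that received pcDNA3.1-3xFlag-IGF2BP3, a plasmid for Flag-tagged IGF2BP3. Both groups were transfected with a lipid reagent in serum-containing Ham's F-12 medium and harvested at 48 h, and the control plasmid is not described further in the labels. The series asked which transcripts change when IGF2BP3, itself a proposed m6A reader, is raised.

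N6-methyladenosine (m6A) is the most abundant internal modification of mRNA. It is written by a methyltransferase complex around METTL3 and METTL14, removed by the demethylases FTO and ALKBH5, and read by proteins whose YTH domain holds the methylated base in an aromatic pocket. YTHDF1, YTHDF2 and YTHDF3 are closely related cytoplasmic proteins, of which YTHDF2 is best known for bringing the CCR4-NOT deadenylase to methylated mRNAs. YTHDC1 is nuclear and acts in splicing and export, and YTHDC2 is an RNA helicase known for its role in germ cells. IGF2BP proteins, in contrast, have no YTH domain and are known for stabilising their targets.

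The upstream sequences of the members are shown as a description, and a link of any motif to a change in level was not tested. The RefSeq promoter table (GRCh38.p14) held 5 windows for 4 of the 5 genes, and the entry missing was that of YTHDF3. Each window reaches 250 bases before an annotated start. The searched motifs were the cAMP response element TGACGTCA, which ATF and CREB factors can bind, the E-box CACGTG, which MYC and MAX can bind, the GC box GGGCGG of SP1, the ETS motif CCGGAAG and TGACG, a shorter form of the cAMP response element that lies within the full one, each on both strands. The stretches of YTHDF2, YTHDF1 and YTHDC1 end before the first GENCODE start, that of YTHDC2 spans it, and capitals mark a cAMP response element or an E-box. YTHDF2 and YTHDC1 are given at length, YTHDF1 as the member with an E-box, and YTHDC2 as 30 bases around its element.
YTHDF2 (chr1:28736374-28736620, plus strand): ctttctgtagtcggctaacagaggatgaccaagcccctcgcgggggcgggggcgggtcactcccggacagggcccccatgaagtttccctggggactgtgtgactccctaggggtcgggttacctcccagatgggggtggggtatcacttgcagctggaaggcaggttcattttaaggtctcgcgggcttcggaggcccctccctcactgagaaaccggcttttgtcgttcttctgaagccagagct
YTHDF1 (chr20:63216235-63216381, minus strand): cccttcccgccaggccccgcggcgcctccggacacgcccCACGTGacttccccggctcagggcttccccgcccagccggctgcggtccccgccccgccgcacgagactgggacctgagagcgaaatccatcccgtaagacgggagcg
YTHDC1 (chr4:68350091-68350340, minus strand): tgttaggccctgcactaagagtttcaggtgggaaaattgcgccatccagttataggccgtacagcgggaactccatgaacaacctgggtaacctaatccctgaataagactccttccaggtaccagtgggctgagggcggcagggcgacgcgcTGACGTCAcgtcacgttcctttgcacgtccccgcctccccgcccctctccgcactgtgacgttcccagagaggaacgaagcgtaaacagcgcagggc
YTHDC2 (chr5:113513665-113513694, plus strand): gccggccctggTGACGTCAttacgcccgcg

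The cAMP response element lay 97 bases before the RefSeq start in YTHDC1 and 18 bases before it in YTHDC2, and 1.65% of the 35116 windows in the table held it. The E-box lay 211 bases before the start of YTHDF1, and 6.34% of all windows held one. TGACG occurred 4 times in YTHDC1, 2 times in YTHDC2 and 1 time in YTHDF1, the full elements included, and in 21.2% of all windows. A full element reads the same on both strands and so holds TGACG 2 times. Both copies of YTHDC2 lie within its element, and those of YTHDC1 outside its element lie 89 and 41 bases before the start. The cAMP response element, the E-box and TGACG were in neither window of YTHDF2, and the ETS motif, in 8.52% of all windows, was in none of the 5. The second YTHDF2 window starts at 28736690, past the GENCODE start at 28736621. The TGACG of YTHDF1, 45 bases before the RefSeq start, likewise lies past the GENCODE start and outside the stretch shown. GC boxes were in all 5 windows, as in 42.6% of all windows. A match of letters describes the sequence only, and binding was not measured.

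IGF2BP3 itself, the check of the labels, was at 90.6, 102 and 100.2 CPM (counts scaled to a common library total after TMM adjustment) in controls and at 511, 573 and 664 CPM after transfection of its plasmid. The 6 libraries held 33555366 to 37633587 counts. Of the 17747 genes tested, 37.7% differed between the groups (edgeR quasi-likelihood test, Benjamini-Hochberg adjusted p under 0.05), 18.5% higher and 19.2% lower, so a call is common in these data. These shares are 3288 genes higher and 3410 lower, and the balance moved with the scaling, to 2577 and 3949 under upper quartile scaling and to 3416 and 2453 with limma on log2 FPKM plus 1. In a fit limited to the 14467 genes with a mean of at least 1 CPM, 6397 were called, a larger share. Shares at matched level were not computed. The labelled cell type was checked against marker lists. Of 11 gastric epithelial markers GKN1 and GKN2 had no row in the table and only PGC reached a mean of 1 CPM, so the defining gastric markers were nearly absent, against the labelled origin. The 5 epithelial markers, among them KRT8, KRT18 and EPCAM, summed to 9782 to 10255 CPM in controls and 8865 to 10240 CPM with overexpression. Of these, 2 were called lower, EPCAM (log2 fold change −0.16) and CDH1 (−0.56), and 0 higher. All 12 hepatocyte markers, among them ALB (1512 ± 46.8 CPM in controls, SD, n = 3) and AFP, were present, which also goes against the label and leaves the identity of the line in doubt, and their sum was 4411 to 4655 CPM in controls and 2656 to 2971 CPM with overexpression, lower for 12 of 12. Summed leukocyte and endothelial markers were at or below 12.6 CPM in each library, and summed fibroblast markers were at 211 to 221 CPM in controls and 121 to 135 CPM with overexpression, led by LUM. The part of these shifts in the results on YTH genes was not tested, and in bulk RNA fewer cells of a type and less RNA per cell cannot be told apart. The share of cells that took up a plasmid is not stated in the labels. Nor do the labels say whether libraries of a group come from separate cultures, so the p-values reflect only library-to-library variation, possibly technical.

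Transcripts of 4 of the 5 YTH genes rose with IGF2BP3 overexpression, none fell, and YTHDF3 did not pass the test. Rises took 18.5% of all genes tested. YTHDF2 and YTHDC1 had the largest changes, 1.33-fold and 1.25-fold, and kept their call under each of 21 alternatives run. The calls of YTHDF1 and YTHDC2 were near the threshold and ended under several of them. The median log2 fold change of the 5 genes was 0.29, beside −0.01 over all genes tested. The groups did not overlap for 3 of the 5 genes, YTHDF2, YTHDC1 and YTHDF1, and 25.3% of all genes tested were higher without overlap.

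**Figure D1:**
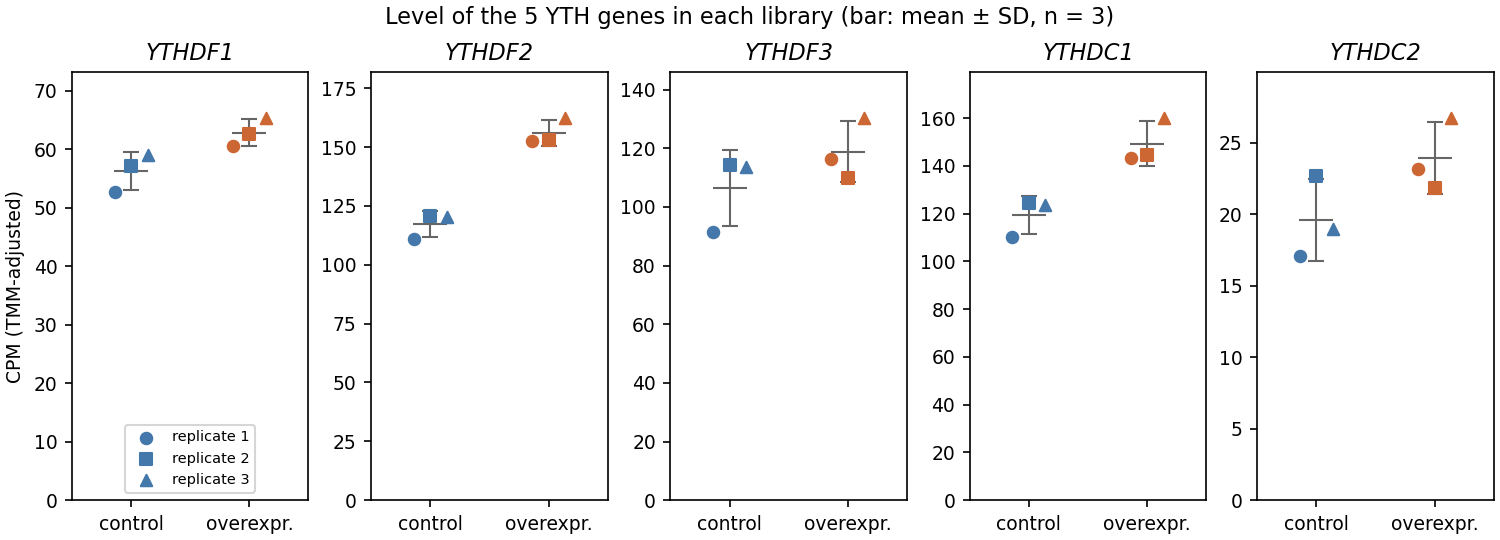
Level of each YTH gene in CPM (y axes start at 0 and differ between panels) in control libraries (blue) and IGF2BP3 overexpression libraries (orange). Symbols are replicates 1 to 3, and bars are the mean and SD of 3 libraries. Control replicate 1 is the lowest control and overexpression replicate 3 the highest overexpression library for all 5 genes.

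YTHDF2 (ENSG00000198492.16; GENCODE 29, GRCh38 chromosome 1, 28736621 to 28769775, plus strand) was at 111, 121 and 120.2 CPM in control replicates 1 to 3 and at 152, 153 and 162 CPM in overexpression replicates 1 to 3. Each overexpression library was above each control. The mean went from 117 ± 5.57 to 156 ± 5.59 CPM (SD over 3 libraries), and the log2 fold change was 0.41 ± 0.05 (SE, edgeR adjusted p = 6.188e-05). Behind these values stood 3943 to 4336 counts in controls and 5428 to 6045 with overexpression. Of all genes tested, 8.23% had a higher log2 fold change. The processed pseudogene YTHDF2P1, looked up because it could share reads, had 0 counts in the controls and 2, 1 and 0 with overexpression.

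YTHDF1 (ENSG00000149658.18; chromosome 20, 63195429 to 63216234, minus strand), whose protein has been linked to translation of methylated mRNAs, changed less. It was at 52.7, 57.1 and 59.0 CPM in controls and at 60.6, 62.6 and 65.3 CPM with overexpression. The groups did not overlap, but the highest control and the lowest overexpression library lay closer to each other than the controls among themselves. The log2 fold change was 0.16 ± 0.06 (SE, edgeR adjusted p = 0.042, from 0.017 to 0.15 over the alternatives). The call ended without control replicate 1 (adjusted p = 0.13) or 2 (0.076) and without overexpression replicate 2 (0.087) or 3 (0.105), and under upper quartile scaling (0.107).

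YTHDC1 (ENSG00000083896.13; chromosome 4, 68310387 to 68350089, minus strand), the nuclear reader, was at 110.4, 124 and 124 CPM in controls and at 143, 145 and 160.0 CPM with overexpression. No overexpression library reached down to the controls. The mean went from 119 ± 7.83 to 149 ± 9.30 CPM (SD over 3 libraries), with a log2 fold change of 0.32 ± 0.06 (SE, edgeR adjusted p = 0.0011). Each library held 3927 to 5958 counts of the gene. The log2 fold change was 0.22 when control replicate 1 and overexpression replicate 3 were both dropped. It was also 0.22 when the fit was adjusted for GC content and length of the transcripts, and the call held in both cases.

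YTHDC2 (ENSG00000047188.16; chromosome 5, 113513683 to 113595285, plus strand), the helicase, had the fewest counts, 608 to 995 per library. It was at 17.1, 22.7 and 18.9 CPM in controls and at 23.2, 21.9 and 26.7 CPM with overexpression, so control replicate 2 lay above overexpression replicate 2. The log2 fold change was 0.29 ± 0.10 (SE, edgeR adjusted p = 0.045, from 8.003e-04 to 0.23 over the alternatives). The call ended without control replicate 1 (adjusted p = 0.12) or 3 (0.12) and without overexpression replicate 1 (0.072) or 3 (0.17). Its change was similar in size to that of YTHDC1, but its coefficient of variation in controls was 14.6% against 6.55%.

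YTHDF3 (ENSG00000185728.17; chromosome 8, 63168553 to 63212786, plus strand), the third cytoplasmic paralog, was at 91.5, 114 and 114 CPM in controls and at 116, 110.0 and 130.3 CPM with overexpression. Overexpression replicate 2 lay below control replicates 2 and 3. The control mean was 106 ± 12.95 CPM and the overexpression mean 119 ± 10.4 CPM (SD over 3 libraries), the log2 fold change was 0.16 ± 0.08 (SE), and the test was not passed (edgeR adjusted p = 0.16, from 0.0044 to 0.87 over the alternatives). Its log2 fold change was 0.060 without control replicate 1, 0.089 without overexpression replicate 3 and −0.01 without both. The lncRNA YTHDF3-DT, transcribed away from the same locus and looked up after the values of YTHDF3 were seen, had 49, 40 and 45 counts in controls and 56, 58 and 36 with overexpression (log2 fold change 0.10, adjusted p = 0.76).

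Control replicate 1 held the lowest control value and overexpression replicate 3 the highest overexpression value for each of the 5 genes. Without both libraries, 2 of the 5 genes were called, YTHDF2 (log2 fold change 0.34, edgeR adjusted p = 1.793e-10) and YTHDC1 (0.22, adjusted p = 3.121e-06). YTHDF1 (0.086) and YTHDC2 (0.12) were then not called. In that fit 6936 of 17830 genes tested were called, 3463 of them higher. Dropping the lowest control and the highest overexpression library makes the change of these genes smaller by construction and can narrow the spread. The smaller adjusted p-values with 2 against 2 libraries are therefore not read as support. IGF2BP3 was also lowest in control replicate 1 and highest in overexpression replicate 3.

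**Figure D2:**
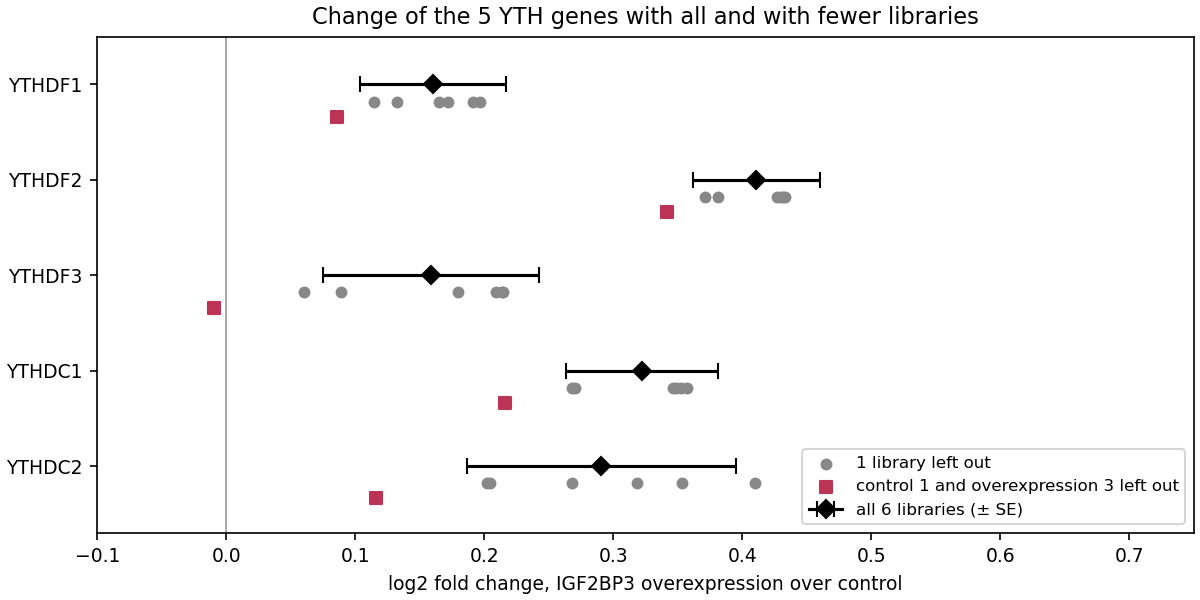
log2 fold change of each YTH gene, overexpression over control (x axis), with all 6 libraries (black diamond, bar ± SE), with 1 library left out (grey points) and without control replicate 1 and overexpression replicate 3 (red square). YTHDF2 and YTHDC1 stay at 0.22 or above, and YTHDF3 reaches −0.01.

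Levels of different genes were compared per length, with the authors' FPKM, fragments scaled by transcript length and library depth. In controls YTHDF2 was highest at 26.2 ± 1.81 FPKM (SD, n = 3). YTHDF1 (14.6 ± 1.17 FPKM), YTHDF3 (14.4 ± 2.05 FPKM) and YTHDC1 (14.2 ± 1.23 FPKM) followed, with means closer to each other than their SDs. YTHDC2 was lowest at 1.51 ± 0.241 FPKM. With overexpression YTHDF2 was at 36.1 ± 1.87 FPKM and YTHDC2 at 1.91 ± 0.227 FPKM, and between them lay YTHDC1 (18.4 ± 1.44 FPKM), YTHDF1 (16.9 ± 0.897 FPKM) and YTHDF3 (16.7 ± 1.71 FPKM). YTHDC1 was above YTHDF1 and YTHDF3 in each of the 3 overexpression libraries and below YTHDF1 in each of the 3 controls. IGF2BP3 was below YTHDF2 in controls (9.54 ± 0.807 FPKM) and above it with overexpression (59.0 ± 8.72 FPKM).

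Shares within a library do not depend on how libraries are scaled. YTHDF2 made up 38.0%, 36.6% and 36.5% of the family's summed FPKM in controls and 40.4%, 40.6% and 39.5% with overexpression, without overlap. The share of YTHDF1 was 21.0%, 20.1% and 20.8% in controls and 18.7%, 19.4% and 18.5% with overexpression, also without overlap. A share can fall while the level rises, and the mean of YTHDF1 itself went from 14.6 to 16.9 FPKM. YTHDC1 took 20.05%, 19.97% and 19.89% in controls and 20.12%, 20.38% and 20.63% with overexpression, a small difference without overlap. The shares of YTHDF3 (means 20.3% and 18.5%) and YTHDC2 (2.12% in both groups) overlapped.

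**Figure D3:**
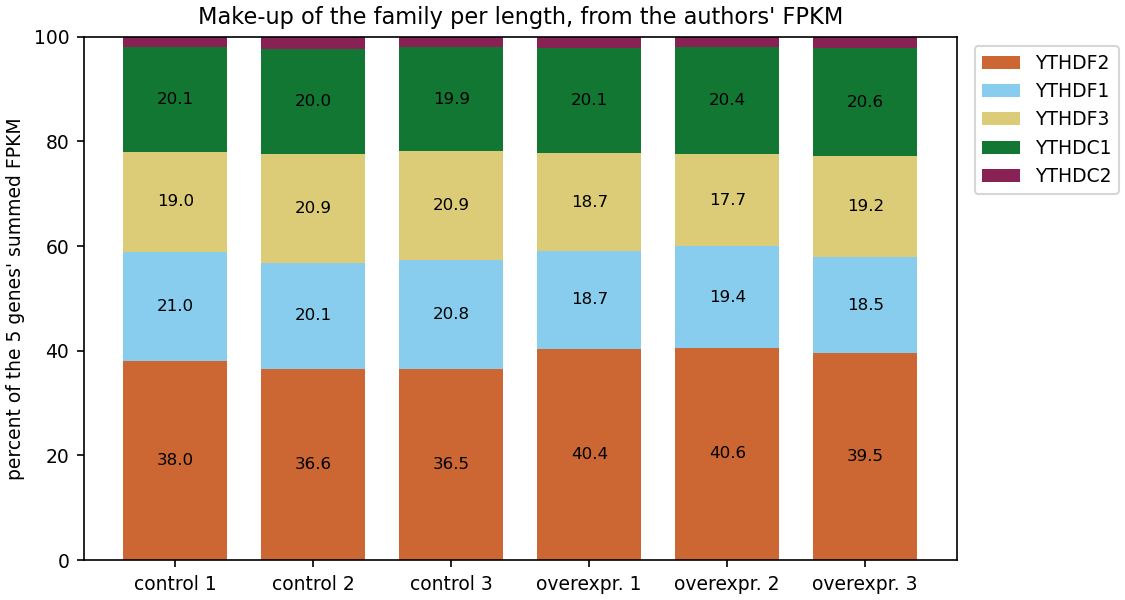
Percent of the summed FPKM of the 5 YTH genes that each gene takes (y axis) in each of the 6 libraries (x axis). The YTHDF2 part is 36.5% to 38.0% in controls and 39.5% to 40.6% with overexpression, and YTHDC2, unlabelled at the top, is near 2.12% on average in both groups.

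Whether the members changed by different amounts was tested on the log2 ratio of the counts of 2 members within a library, for all 10 pairs. For 6 pairs the ratios of the groups did not overlap. Where 37.7% of genes differ such ratios can be common, the share over other gene pairs was not computed, and nothing particular to the family is read from this count. The log2 ratio of YTHDF1 over YTHDF2 was −1.07, −1.08 and −1.03 in controls and −1.33, −1.29 and −1.31 with overexpression, a difference of −0.25 ± 0.02 (SE). YTHDF2 over YTHDF3 differed by a like amount, 0.25 ± 0.08, and YTHDF2 over YTHDC1 by 0.09 ± 0.03. YTHDF1 over YTHDC1 differed by −0.16 ± 0.03 and YTHDF3 over YTHDC1 by −0.16 ± 0.06. The sixth was YTHDF3 over YTHDC2 at −0.13 ± 0.08, which was −0.061 without control replicate 3. Its groups nearly touched, with a lowest control log2 ratio of 2.3318 and a highest overexpression log2 ratio of 2.3312. For YTHDF1 over YTHDF3 the groups overlapped, with a difference of −0.0015 ± 0.08, and YTHDC1 over YTHDC2 gave 0.03 ± 0.09. The two-sided exact permutation test gave p = 0.1 for each of the 6 pairs, the smallest that 3 against 3 libraries allow, and 0.17 after Benjamini-Hochberg adjustment over the 10 pairs, so no pair could pass.

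The summed level of the 3 cytoplasmic YTHDF genes, not scaled by length, was 255, 292 and 293 CPM in controls and 329, 325 and 358 CPM with overexpression. The groups did not overlap, and 25.3% of single genes tested were higher without overlap. YTHDF2 gave the largest part of the rise, with means of 117 and 156 CPM, beside 106 and 119 CPM for YTHDF3 and 56.2 and 62.9 CPM for YTHDF1. The mean was 280.0 ± 21.6 CPM in controls and 338 ± 17.7 CPM with overexpression (SD, n = 3), a difference of 0.27 on the log2 scale (two-sided exact permutation p = 0.1, the smallest possible).

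The mRNAs of the members differ in length and in a sequence context of m6A. In the longest coding transcript of GENCODE 29 the 3′ UTR had 823 bases in YTHDF2, 1279 in YTHDF1, 1810 in YTHDC2, 3079 in YTHDF3 and 3712 in YTHDC1, beside a median of 993 over 19659 coding genes. The motif GGACT, a frequent m6A context, was counted on the transcript strand. YTHDF2 had 3 copies, 1.03 per kb, YTHDC1 and YTHDC2 had 4 each, 0.64 and 0.63 per kb, YTHDF3 had 2, 0.39 per kb, and YTHDF1 had 1, 0.30 per kb. The median of coding genes was 0.93 per kb. Methylation was not measured. GENCODE 29 lists no other gene that overlaps any of the 5 genes.

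Genes whose profile over the 6 libraries was most like that of a member were found by Pearson's r of log2 CPM among 9561 genes with a mean of at least 10 CPM. For YTHDF2 they were DUSP4 (r = 0.999) and IFRD1 (r = 0.999), for YTHDC1 ERI1 (r = 1.00) and U2SURP (r = 0.999), and for YTHDF1 MOB4 (r = 0.999) and INTS6 (r = 0.998). For YTHDF3 they were WASF3 (r = 0.997) and LRRFIP1 (r = 0.996), and for YTHDC2 KDM3B (r = 0.993) is given. Such values are common with 6 points that share 2 groups: 1432 genes had r above 0.95 with YTHDF2, 1192 with YTHDC1, 378 with YTHDF1, 217 with YTHDF3 and 168 with YTHDC2.

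The genes that act with the YTH proteins were described in 10 lists with 111 genes, of which 109 were tested, 47 were higher and 6 lower. IGF2BP3, the gene on the plasmid, is counted among the 47. Over all genes tested, 18.5% were higher and 19.2% lower. Among the readers' upstream partners, the m6A writer complex had 4 of 8 members higher and 1 lower (median 0.14). CBLL1, a ubiquitin-ligase-like subunit, had the largest change (0.49 ± 0.07, SE), and the catalytic subunit gene METTL3 fell by 0.17 on the log2 scale (edgeR adjusted p = 0.016), a call that ended without control replicate 2 (0.066), overexpression replicate 1 (0.054) or 2 (0.068), with 0.12 as the highest value over the alternatives. METTL14 (0.09, adjusted p = 0.35) and the eraser genes FTO (−0.05, adjusted p = 0.52) and ALKBH5 (−0.02, adjusted p = 0.72) did not pass. With any 1 of the 6 libraries left out, 2 or 3 of the 8 writer genes were called, and without control replicate 1 and overexpression replicate 3 the list had 2 higher and 1 lower. Of 7 other methyltransferases and erasers 3 were higher and 0 lower (median 0.06), led by the rRNA methyltransferase genes ZCCHC4 (0.50 ± 0.07) and METTL5 (0.29 ± 0.05). Of 13 other proposed readers, IGF2BP3 included, 3 were higher and 2 lower, with a median of 0.05. That is 38.5% called, near the 37.7% of all genes tested.

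Among decay partners of YTHDF2 the share called was 33.3% in the CCR4-NOT list and 35.7% in the decapping list, near the 37.7% of all genes tested. In the CCR4-NOT list 5 of 15 were higher and 0 lower (median 0.12), with CNOT10 (0.38 ± 0.05), the deadenylase gene CNOT7 (0.22 ± 0.04) and TOB2 (0.33 ± 0.07), while the scaffold gene CNOT1, whose product contacts YTHDF2, was at 153 ± 2.86 and 159 ± 4.71 CPM (adjusted p = 0.29). Among 14 decapping and decay body genes 4 were higher and 1 lower (median 0.11; 6 and 2 without control replicate 1 and overexpression replicate 3), with DCP1A (0.31 ± 0.06), LSM14A (0.28 ± 0.05) and the helicase gene DDX6 (0.25 ± 0.05) higher and XRN1 not called (0.09, adjusted p = 0.48). Without control replicate 2 or without overexpression replicate 2 these counts were 3 and 0. Of 12 genes of RNase P and MRP with the adaptor RIDA, through which YTHDF2 can lead to endonuclease cleavage, 6 were higher and 1 lower (median 0.17). RPP30 (0.43 ± 0.05), RPP25 (0.48 ± 0.07) and RPP40 (0.59 ± 0.10) rose, and RIDA had −0.15 (adjusted p = 0.072). RIDA was called lower under 4 alternatives: upper quartile scaling (adjusted p = 0.024), a mean of at least 1 CPM (0.045), without control replicate 1 and overexpression replicate 3 (0.038) and the adjustment for GC content and length (0.013). Of 9 stress granule genes 4 were higher and 0 lower (median 0.12), led by USP10 (0.34 ± 0.06) and ATXN2 (0.36 ± 0.06).

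Of the 13 eIF3 subunits, the initiation factor that YTHDF1 has been reported to contact, 9 were higher and 0 lower (median 0.21), 69.2% called beside 37.7% of all genes tested. In level, EIF3J lay above 89.5% of genes tested, EIF3C above 58.5% and the other subunits above EIF3J, and level was not matched. EIF3D (0.36 ± 0.04), EIF3M (0.35 ± 0.04) and EIF3E (0.26 ± 0.04) had the smallest p, and EIF3C, which has a near-identical copy, is uncertain. Among 12 nuclear partners of YTHDC1 6 were higher and 1 lower (median 0.18), against 6 and 4 (median 0.081) after adjustment for GC content and length, and 6 and 3 without control replicate 1 and overexpression replicate 3. SAFB (0.37 ± 0.04), SAFB2 (0.38 ± 0.05), ZCCHC8 of the nuclear exosome targeting complex (0.53 ± 0.07) and the export receptor gene NXF1 (0.23 ± 0.05) rose, and the splicing factor gene SRSF3, the best known partner, was at 485 ± 10.4 and 496 ± 2.85 CPM (adjusted p = 0.53). For YTHDC2, the germ cell partner genes MEIOC (4.23 ± 0.476 and 5.06 ± 0.709 CPM, adjusted p = 0.16) and RBM46 (not tested, at 0 to 0.03 CPM on average) were at low levels. The related helicase genes DHX36 (0.34 ± 0.07), DHX30 (0.20 ± 0.04) and DHX9 (0.20 ± 0.05) rose, and 3 of the 6 tested in that list were called (median 0.20). Adjusted p-values in this and the preceding paragraphs are from edgeR over all genes tested.

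Several list medians moved by more than 1.5 times with the processing. After adjustment for GC content and length the median was 0.054 for the writer complex, 0.017 for CCR4-NOT, 0.025 for stress granules, −0.017 for other proposed readers and 0.15 for other methyltransferases and erasers. Without control replicate 1 it was 0.073 for CCR4-NOT and 0.023 for other readers. Other methyltransferases and erasers had 0.0052 without overexpression replicate 2 and 0.092 without overexpression replicate 3, and other readers 0.032 without the latter. With control replicate 1 and overexpression replicate 3 both out, it was 0.056 for CCR4-NOT, 0.064 for decapping, 0.053 for stress granules, 0.030 for other readers and 0.11 for the YTHDC2 list. Upper quartile scaling lowered 5 of the 10 medians by as much (CCR4-NOT 0.073, decapping 0.065, stress granules 0.081, other methyltransferases and erasers 0.014, other readers 0.0050), and log2 FPKM plus 1 raised the last 2 to 0.098 and 0.094. Over all genes tested the median shift was −0.044 under upper quartile scaling and 0.049 with log2 FPKM plus 1. All 10 medians were lower under upper quartile scaling, that of eIF3 at 0.17 against 0.21, so nothing particular to a list is read from this. The medians of eIF3 and of RNase P and MRP moved by less than 1.5 times in each alternative computed for the lists. This ratio depends on the size of the median, so it does not rank the lists by stability. Without control replicate 1 and overexpression replicate 3, RNase P and MRP went from 0.17 to 0.25 and CCR4-NOT from 0.12 to 0.056. The YTH median itself was 0.20 without control replicate 1 or without overexpression replicate 3, 0.12 without both and 0.18 after adjustment for GC content and length, and in these 4 cases the eIF3 and RNase P medians were higher. With log2 FPKM plus 1 it was 0.22, below the 0.26 of eIF3. METTL14, ALKBH5, CNOT1, XRN1 and SRSF3, none of them called, changed sign under at least 1 alternative.

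**Figure D4:**
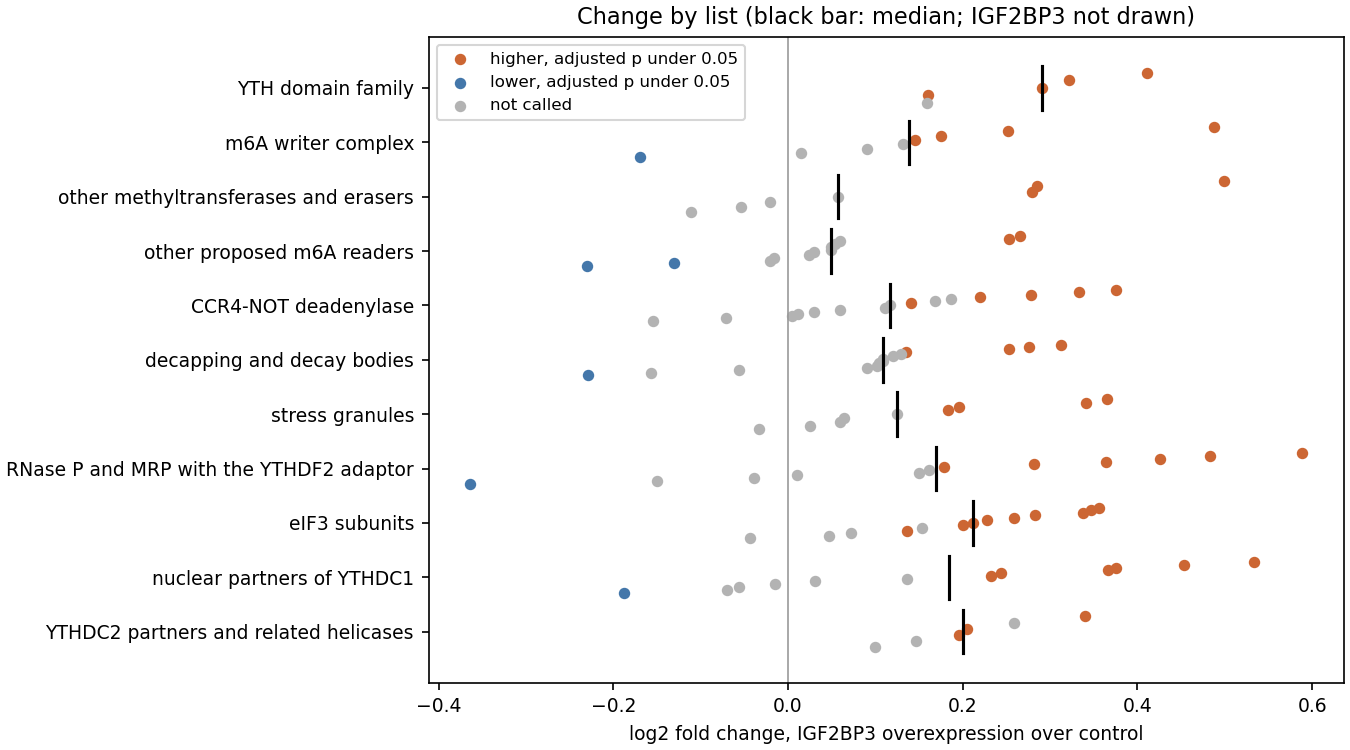
log2 fold change of each tested gene (points, x axis) in the YTH family and the 10 lists (y axis), with genes called higher in orange, called lower in blue and not called in grey, and the list median as a black bar. IGF2BP3 is left out of the points of its row but is counted in the median of that row. The YTH median is 0.29 and the 10 other medians run from 0.05 to 0.21, an order that changed under 5 alternatives, among them leaving out control replicate 1, where the YTH median was 0.20 and that of eIF3 0.21.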

How the data were processed

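RNA-seq libraries were grouped by their titles. The authors deposited, for each gene, unnormalized read counts and FPKM rounded to 2 decimals. HISAT2, DESeq2 and GRCh38 are named, without versions, per the submitters' processing notes. Not given in the sources used here were the counter, its strand setting and the annotation release.

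Counts were tested with edgeR 4.0.16 (R 4.3.3) over the genes kept by filterByExpr (minimum count 10, minimum total 15), with TMM scaling, the quasi-likelihood F test, group as the only term and Benjamini-Hochberg adjustment over all 17747 genes. The SE of a log2 fold change came from the F statistic. Alternatives were a block on replicate number, other scalings and filters, leaving out each library or 2 together, DESeq2 1.42.0, voom (limma 3.58.1), limma on deposited FPKM as log2 with 1 or 0.1 added, and an adjusted p under 0.01. A correction for GC content and length (GENCODE 29, matched on the Ensembl ID without version, 98.6% of genes tested) was added after seeing the data. The pipeline was tested on simulated counts.

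The members, lists and tests were chosen with earlier results of these data known. The genes named are the 5 members, 10 fixed partner genes, those with the smallest p in each list and the 2 most similar profiles per member, of which 1 is not reported here; others are marked where they appear.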

Additional observations from a re-analysis of the deposited data

How the results depend on the processing

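YTHDF2 and YTHDC1 were called higher under all 21 alternatives, with log2 fold changes of 0.34 to 0.46 and 0.22 to 0.37. YTHDF1 was no longer called under upper quartile scaling (0.12, adjusted p = 0.107), at an adjusted p under 0.01 (0.16) and without control replicate 1 and overexpression replicate 3 together (0.086, adjusted p = 0.15). With each library left out its log2 fold change ran from 0.11 to 0.20. YTHDC2 was no longer called under upper quartile scaling (0.25), with a mean of at least 1 CPM (0.28, adjusted p = 0.052), with limma on log2 FPKM plus 1 (0.22) or plus 0.1 (0.33), at an adjusted p under 0.01 (0.29), without those 2 libraries (0.12) and after removal of the GC and length trend (0.18, adjusted p = 0.077). With each library left out it ran from 0.20 to 0.41. YTHDF3 was called with no filter on low counts (0.18, adjusted p = 0.0044) and had the opposite sign, −0.01 (−0.009837), without the 2 libraries. The cause of these changes was not tested.

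The count of genes called was 4293 at an adjusted p under 0.01, against 6698, and 5530 to 7253 otherwise. In the related lists 41 to 63 genes were called, against 53. The pair YTHDF1 over YTHDF3 changed sign in 3 fits with a library left out (−0.054 to 0.057) and YTHDC1 over YTHDC2 in 2 (−0.054 to 0.073), both near 0. The summed YTHDF level kept its direction (0.21 to 0.31).

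With the replicate block, log2 fold changes were 0.16 for YTHDF1, 0.41 for YTHDF2, 0.16 for YTHDF3 (adjusted p = 0.054), 0.32 for YTHDC1 and 0.29 for YTHDC2, 6848 genes were called and no call of a member changed. The labels do not say what a number shares. Deviations of same-numbered libraries correlated at 0.085, −0.038 and 0.078 over genes, so the numbers were not taken as pairs, and not every library correlated best with its own number. YTHDC2 had the fewest counts, from 608 in 1 control, and whether depth limits its call was not tested.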
